A study of Mus musculus with 12 samples.

Results

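The genes described here encode heterogeneous nuclear ribonucleoproteins (hnRNPs), SR proteins and core subunits of the spliceosome. They were chosen by name: every row of the deposited tables whose symbol begins with HNRNP, HNRP, SRSF, SFRS, SF3A, SF3B, SNRP or U2AF, with SRSF3 and its older name SFRS3 left out by that rule. This gave 58 genes of 11481 in all, each measured in all 12 libraries. They fell into 19 hnRNP genes, 18 genes named as SR proteins, 12 genes of the U2 small nuclear ribonucleoprotein (snRNP) and its partner U2AF, and 9 genes of the Sm ring and the U1 snRNP. The rule itself uses names and no measured value.

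Messenger RNA was sequenced in primary mouse embryonic fibroblasts (MEFs) of a hybrid 129/B6 background, either wild type (WT, lincRNA-p21+/+) or knockout (KO, lincRNA-p21-/-) for a long noncoding RNA that p53 induces. Cells of both genotypes were mock treated or given doxorubicin, an anthracycline that breaks DNA and activates p53, at a labelled dose of 0.5 mM for 24 hours. The unit of that dose is in doubt, because micromolar doses are usual in culture. This made 4 groups, each of 3 biological replicates. The labels do not describe the deleted allele, the number of embryos or what a replicate number stands for, and the genotype of each library was taken from its label alone, since lincRNA-p21 is not analysed here.

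hnRNPs coat nascent transcripts and often repress the use of nearby splice sites, whereas SR proteins bind exonic enhancers through RNA recognition motifs and recruit the spliceosome through domains rich in arginine and serine. The U1 snRNP recognises the 5′ splice site, U2AF the 3′ splice site, and the SF3A and SF3B complexes of the U2 snRNP the branch point, while the Sm proteins form the ring on which these snRNPs are built. hnRNP-K, encoded by Hnrnpk, is a proposed protein partner of lincRNA-p21 and a known cofactor of p53 in transcription. Gene-level values give the amount of RNA of each gene and do not show how its transcripts, or those of its targets, were spliced.

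Several rows carry older names. Matching to the RefSeq annotation of GRCm38.p6 found 40 genes as current symbols and 18 as synonyms, so SFRS1 is Srsf1, SFRS13A is Srsf10 and HNRPDL is Hnrnpdl. For 8 rows of the SR group the current symbol lies outside the SRSF series: Scaf11, Scaf4, Clasrp, Sfswap, Sugp2, Pnisr, Srek1ip1 and Akap17b, most of which encode other proteins with arginine-serine stretches. The row SRSF12 is ambiguous, since that name is a current symbol and also an older name of Srek1. Hnrnpa1, Hnrnpa3 and Snrpg have many processed pseudogenes and Snrpn is a close copy of Snrpb, so how reads were divided among copies adds uncertainty to these 5 genes.

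Values are CPM, a gene's read count scaled to the reads of its library, which is a share and not an amount per cell, and fewer cells of a kind and less RNA per cell cannot be told apart. The libraries held 14327048 to 20511907 reads, and the 58 genes ranged from 4.40 to 915 CPM in mock and from 4.29 to 612 CPM after doxorubicin. CPM is not per length, so levels are not compared between genes. Differences are on the log2(CPM + 1) scale, with their standard error (SE). A gene is called where limma gave an adjusted p under 0.05 (Benjamini-Hochberg over all genes of the fit), and results of a second fit, which takes the replicate number as a block, are given beside it where calls changed. Of the fixed fibroblast markers, 15 of 16 were listed and together made up, in mock, 6.16 to 7.38% of CPM in WT and 5.25 to 6.90% in KO and, after doxorubicin, 3.47 to 4.36% in WT and 3.18 to 4.12% in KO. Of the markers of other cells, 3 of 9 endothelial, 2 of 10 blood and macrophage, 3 of 10 epithelial, 4 of 10 neural and 2 of 10 skeletal muscle genes were listed, and Pecam1, Ptprc, Epcam and Myod1 were not among them.

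The summed level of the hnRNP genes was 4294, 4761 and 4326 CPM in WT mock replicates 1, 2 and 3, and 4965, 5670.3 and 4808 CPM in KO mock. It was 3813, 3638 and 3287 CPM in WT doxorubicin and 4375, 4627 and 3758 CPM in KO doxorubicin. KO libraries thus lay above WT libraries of the same number in all 6 pairs, with no overlap between the genotypes in mock and an overlap after doxorubicin. The sum over all 58 genes ran, in mock, from 7959 to 8641 CPM in WT and 8850 to 9977 in KO and, after doxorubicin, from 6853 to 7541 in WT and 7469 to 8692 in KO.

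**Figure D1:**
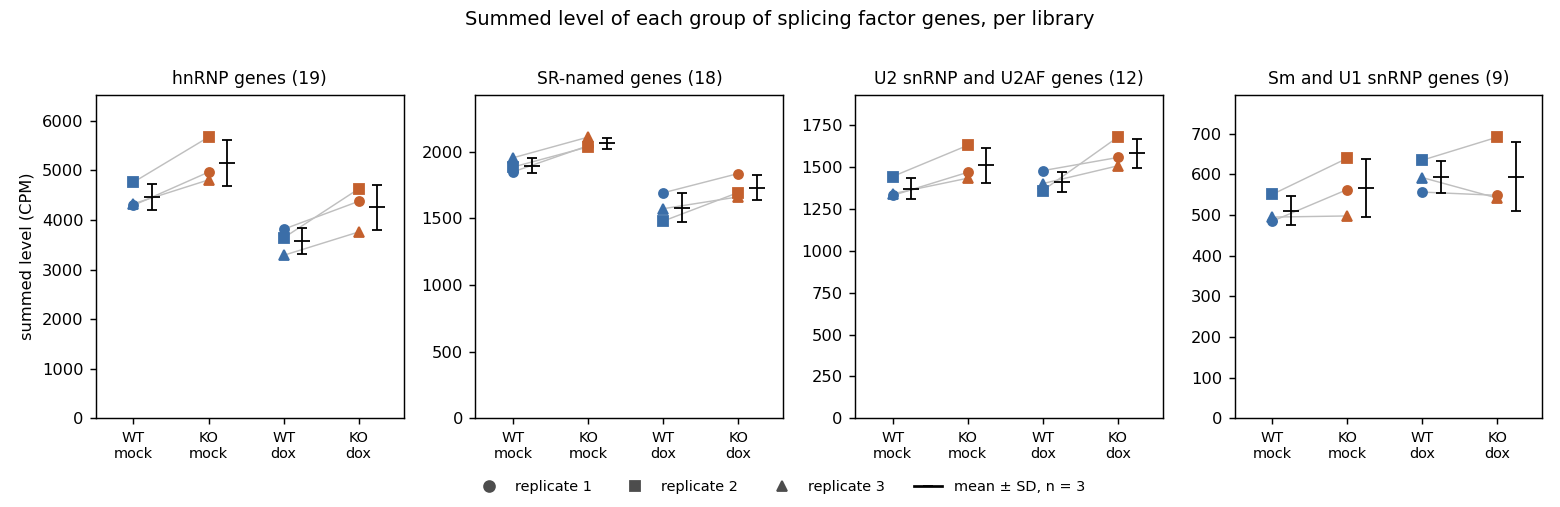
Summed level in CPM (vertical axis, from 0) of each group of splicing factor genes in every library, by genotype and treatment, with the mean ± SD of 3 libraries and thin lines joining WT and KO libraries of the same replicate number. In the hnRNP panel the KO mock libraries, from 4808 CPM, lie above the WT mock libraries, up to 4761 CPM, and all doxorubicin libraries lie below the KO mock libraries.

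The first question was whether these genes differ with lincRNA-p21 genotype in mock-treated cells. No member was called, either without the block (0 of 58, against 0% of all genes higher and 0% lower) or with it (0 of 58, against 0.563% higher and 0.357% lower). At an unadjusted p under 0.05 limma gave 4 members without the block (6.90%, against 4.13% of all genes) and 33 with it (56.9%, against 23.1%), and the smallest adjusted p was 0.978 and 0.0669 respectively. All 19 hnRNP genes nonetheless had a KO mean above WT, between 0.14 and 0.30, with a median of 0.20. The U2 group lay above WT in 12 of 12 (median 0.15), the Sm and U1 group in 9 of 9 (0.14) and the SR group in 13 of 18 (0.10), which made 53 of 58 members with a median of 0.16. Over all 10648 genes the median was 0.06 and 7094 lay above WT. Related lists lay on the same side, with 69 of 73 other spliceosome genes above WT (median 0.10) and 37 of 48 splicing regulators outside the name rule (median 0.13). With quantile normalization or median centring 46 of 58 members lay above WT, against 5547 and 5214 of all genes, and the hnRNP count remained 19 of 19.

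The KO and WT libraries did not overlap for 10 members, all higher in KO, and for 0 lower in KO, against 8.25% and 1.74% of all genes. KO was above WT in each of the 3 pairs for 39 members and below in each for 0, against 35.3% and 11.9% of all genes. Without replicate 3, the fit with the block called 33 members and 22.9% of all genes, whereas without replicate 1 or 2 it called 0 members and 0.0376% or 0% of all genes. Such fits have very few residual degrees of freedom, so these counts do not show what each replicate contributes. Proliferation genes, a list of cell cycle and DNA replication genes, lay above WT in 32 of 33 with a median of 0.38, and 4 of them were called higher with the block. Whether that difference has a part in the values of the splicing factor genes was not tested.

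Among single hnRNP genes in mock, Hnrnpr, which encodes an hnRNP close to the mRNA-binding protein Syncrip, had the smallest p. Its level was 85.7, 94.2 and 85.3 CPM in WT mock and 104, 122 and 102 CPM in KO mock, so the groups did not overlap, and the difference was 0.30 (SE 0.10, adjusted p = 0.978, 0.0669 with the block). Hnrnpk was at 495, 555 and 506 CPM in WT mock and at 582, 645 and 551 CPM in KO mock. The lowest KO library thus stood just under the highest WT library, and the difference of 0.19 (SE 0.10) had an adjusted p of 0.978, or 0.126 with the block. In the other groups the smallest p fell to Sf3b3 (0.22, SE 0.09), Snrpg (0.21, SE 0.11) and Srsf9 (0.18, SE 0.10), none of them called.

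After doxorubicin the same comparison again gave no call without the block (0 of 58, against 0% of all genes in either direction), and at an unadjusted p under 0.05 limma gave 5 members (8.62%, against 11.2% of all genes). With the block 15 members were higher in KO and 2 lower, that is 25.9% and 3.45% of the members against 11.8% and 13.6% of all 11125 genes. Of the 15, 10 were hnRNP genes. Of the rest, 2 were SR genes and 3 belonged to the U2 group, and the genes lower in KO were 1 of the U2 group and 1 Sm gene. These calls rest on the pairing of replicates: without replicate 1, 2 or 3 the blocked fit called 1 (Sf3b3), 12 and 9 members, all among the 17, and 6.22%, 23.3% and 14% of all genes. In the mean, 49 of 58 members lay above WT with a median of 0.18. Over all 11125 genes 6034 lay above WT, with a median of 0.03. After quantile normalization 48 members and 6147 of all genes lay above WT, and after median centring 47 and 5628.

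**Figure D2:**
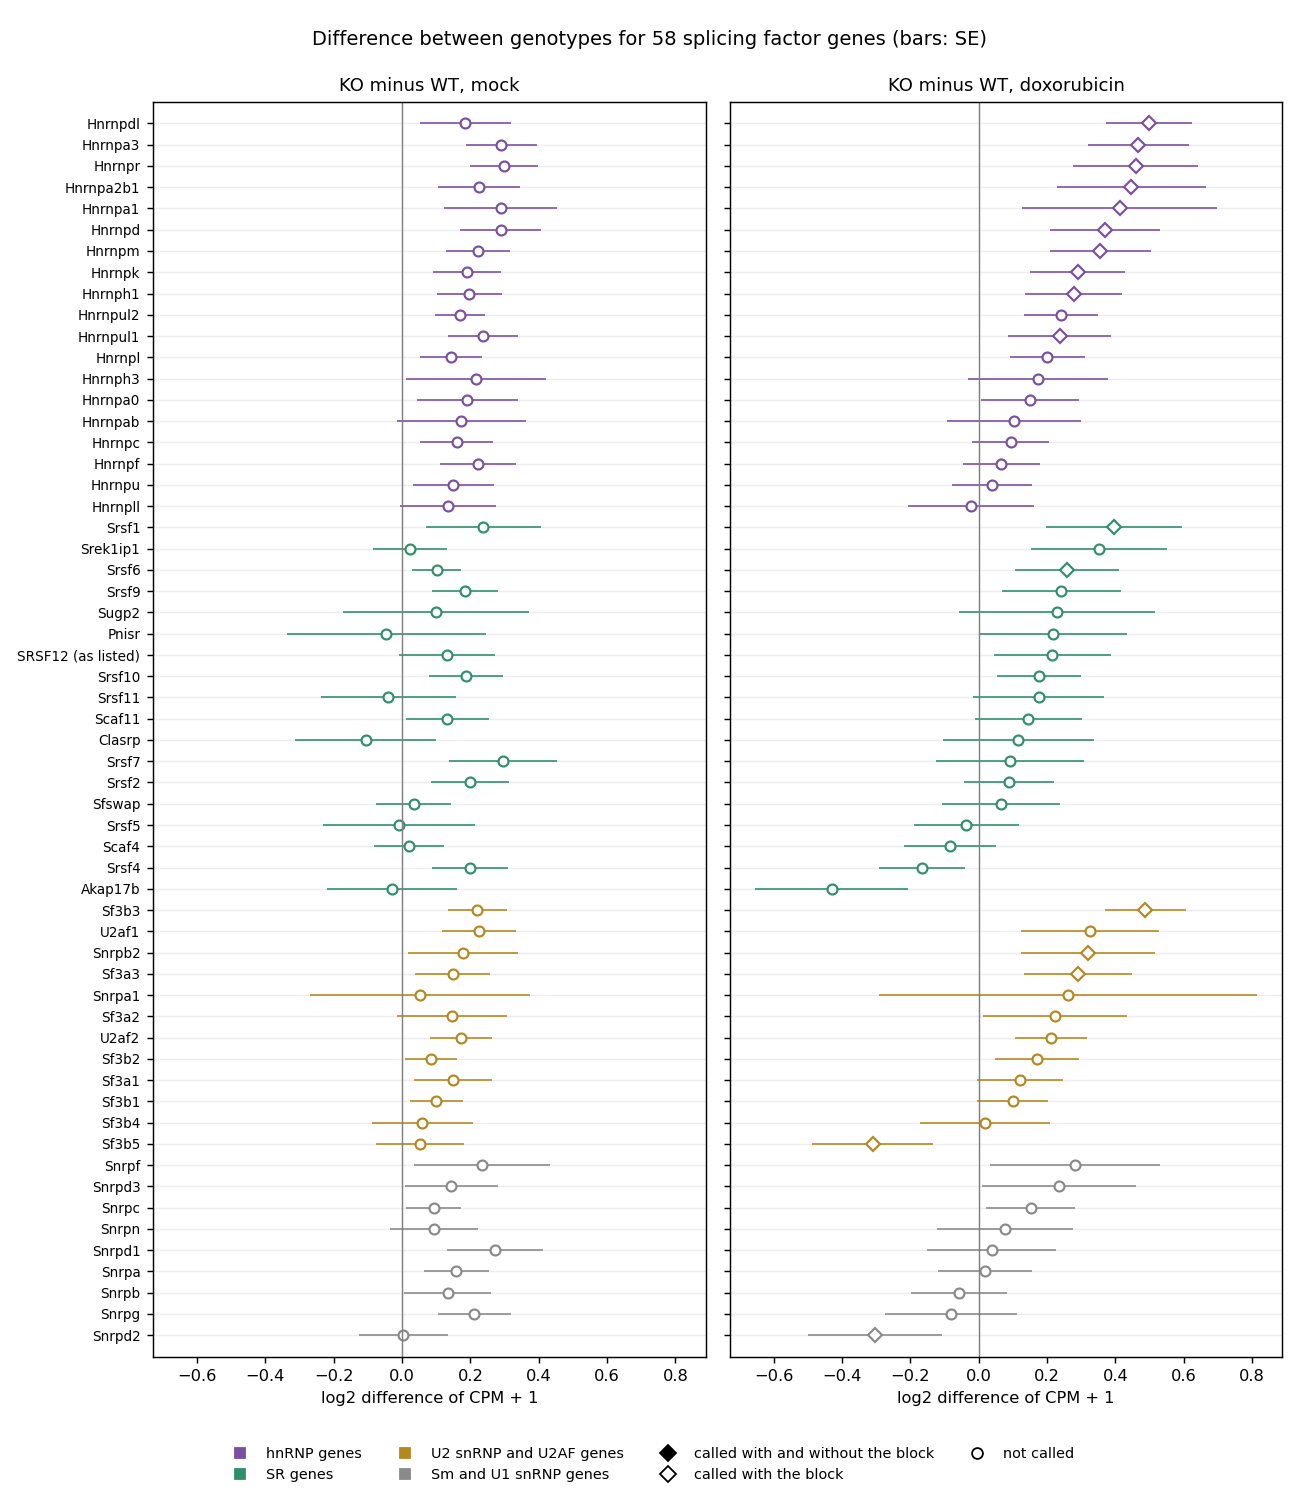
Difference between KO and WT in log2(CPM + 1) (horizontal axis) for each of the 58 genes, in mock (left) and after doxorubicin (right), with the SE of the fit without the block as bars and open diamonds for genes called only with the block. In mock no gene is called, and after doxorubicin 10 of the 15 genes called higher are hnRNP genes, between 0.24 and 0.50.

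The largest of these hnRNP differences were in Hnrnpdl, a relative of the mRNA decay factor AUF1, in Hnrnpa3, of the A/B family, and in Hnrnpr. Hnrnpdl was at 137, 114 and 127 CPM in WT doxorubicin and at 192, 182 and 160.1 CPM in KO doxorubicin, a 1.42-fold ratio of means with no overlap. Its difference was 0.50, with an SE of 0.13 and an adjusted p of 0.443, and with the block an SE of 0.08 and an adjusted p of 0.00988. Hnrnpa3 was at 161, 159 and 143 CPM in WT and at 222, 247 and 177 CPM in KO (0.47, SE 0.15, adjusted p = 0.443, 0.0108 with the block). Here too every KO library lay above every WT library. For Hnrnpr the levels were 68.2, 59.0 and 48.0 CPM in WT and 92.7, 83.3 and 66.0 CPM in KO, and its difference was 0.46 (SE 0.18, adjusted p = 0.443, 0.00887 with the block). The third KO library of Hnrnpr fell within the WT range.

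Hnrnpk stood at 460.0, 427 and 374 CPM in WT doxorubicin and at 528, 567 and 449 CPM in KO doxorubicin, so KO was higher in each pair while the third KO library lay within the WT range. The difference was 0.29 (SE 0.14), with an adjusted p of 0.444 without the block and 0.0310 with it, and over its 19 alternatives the adjusted p ran from 0.0310 to 0.919. It was not called in any of the blocked fits that left out a replicate. The other 6 hnRNP genes called with the block were Hnrnpa2b1, Hnrnpa1, Hnrnpd, Hnrnpm, Hnrnph1 and Hnrnpul1.

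Their levels show how far the pairing carries these calls. Hnrnpa2b1, an abundant hnRNP that also binds RNA outside the nucleus, was at 437, 461 and 300.4 CPM in WT doxorubicin and at 612, 604 and 415 CPM in KO doxorubicin. Hnrnpa1, the best studied repressor of exon inclusion, was at 90.1, 124 and 68.3 CPM in WT and at 116, 174 and 90.1 CPM in KO. In both genes replicate 3 was the lowest library of either genotype, and the ranges of the genotypes overlapped although each KO library exceeded its WT partner. Hnrnpd, which encodes AUF1, was at 88.7, 77.1 and 68.3 CPM in WT and 108, 112 and 83.8 CPM in KO. Hnrnpm, a protein of early spliceosomes, was at 179, 157 and 145 CPM in WT and 212, 234 and 174 CPM in KO. Replicate 3 was again the lowest of each genotype in these genes. Hnrnph1, which binds runs of G, was at 234, 205 and 199.9 CPM in WT and 305, 244 and 229 CPM in KO, and Hnrnpul1, a relative of hnRNP-U, at 135, 125 and 101 CPM in WT and 152, 149.8 and 123 CPM in KO.

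In the SR group Srsf1 and Srsf6 were called higher in KO with the block. Srsf1, the founding SR protein, was at 131, 131 and 94.5 CPM in WT doxorubicin and at 161, 189 and 122 CPM in KO doxorubicin, a difference of 0.40 (SE 0.20, adjusted p = 0.448, 0.0137 with the block). Srsf6 was at 199.8, 174 and 151 CPM in WT and at 234, 215 and 179 CPM in KO, a difference of 0.26 (SE 0.15, adjusted p = 0.477, 0.0316 with the block). The ranges of the genotypes overlapped in both genes. The other 16 genes of the group were not called, and the lowest of them, Akap17b, had a difference of -0.43 (SE 0.22, adjusted p = 0.45, 0.0632 with the block).

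In the U2 group Sf3b3, a large SF3B subunit that also belongs to a chromatin-modifying acetyltransferase complex, was at 149, 122 and 129.7 CPM in WT doxorubicin and at 187, 193 and 181 CPM in KO doxorubicin. Its ranges stood well apart, the ratio of means was 1.40 and the difference was 0.49 (SE 0.12, adjusted p = 0.443, 0.0103 with the block). Snrpb2, the U2 protein B'', was at 48.6, 46.6 and 33.6 CPM in WT and at 57.97, 59.4 and 43.5 CPM in KO (0.32, adjusted p = 0.488, 0.0324 with the block). Sf3a3 was at 58.2, 58.8 and 46.8 CPM in WT and at 70.4, 74.0 and 56.8 CPM in KO (0.29, adjusted p = 0.458, 0.034 with the block). Both genes overlapped between genotypes through replicate 3. Sf3b5, the smallest SF3B subunit, went the other way, at 126, 126 and 165 CPM in WT and 91.8, 112 and 133 CPM in KO (-0.31, SE 0.18, adjusted p = 0.468, 0.0328 with the block). In the Sm group Snrpd2 was at 65.3, 89.5 and 62.9 CPM in WT and at 56.6, 71.0 and 48.2 CPM in KO (-0.30, SE 0.20, adjusted p = 0.503, 0.0339 with the block). Over the alternatives run on the 10 members named here beside Hnrnpk, the highest adjusted p was 0.919 in each.

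Groups did not overlap for 7 members higher in KO and 0 lower, against 9.7% and 6.64% of all genes. KO was above WT in every pair for 36 members and below in every pair for 5, against 34.2% and 27.6% of all genes. The proliferation genes lay on the other side here, with 25 of 28 below WT and a median of -0.50, and with the block 12 were called lower and 1 higher. Splicing regulators outside the name rule, such as the Ptbp, Mbnl and Rbm genes, had 14 of 47 called higher and 3 lower with the block, and 73 other spliceosome genes had 9 higher and 6 lower. The listed skeletal muscle markers, Des and Acta1, were lower in KO, with both called with the block after doxorubicin (median -1.40) and 1 of 2 in mock (median -1.05). Their sum was 75.9 to 434 CPM in WT and 30.9 to 182 CPM in KO in mock, and 44.6 to 204 and 22.6 to 52.6 CPM after doxorubicin. The part of proliferation or of muscle markers in these differences was not tested.

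**Figure D3:**
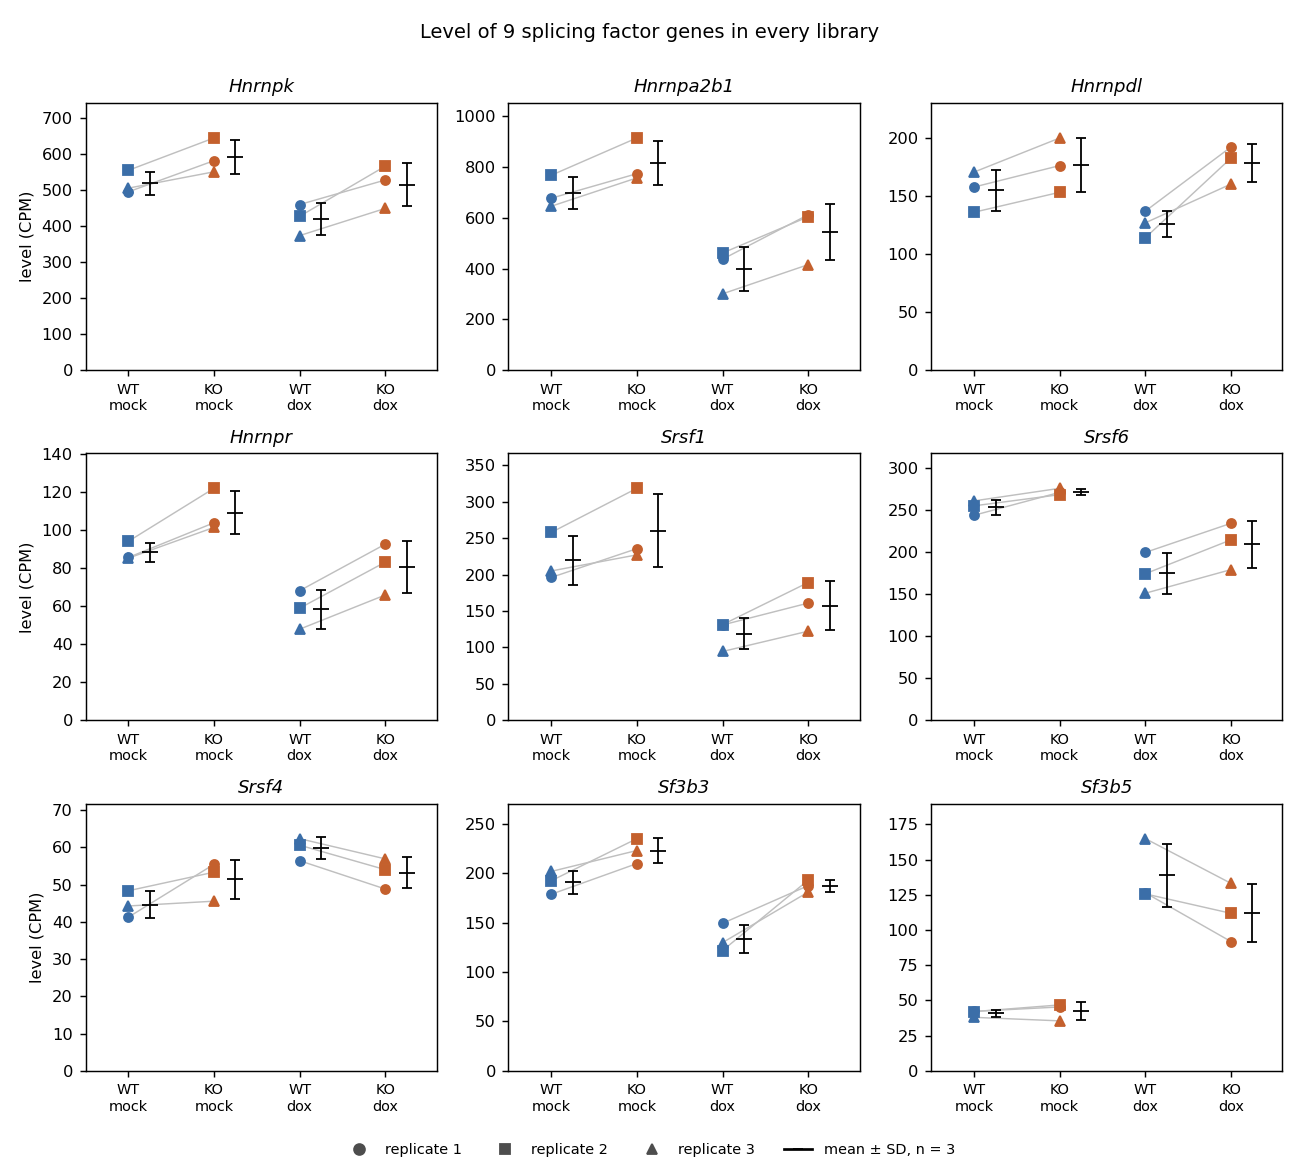
Level in CPM (vertical axis, from 0) of 9 splicing factor genes in every library by genotype and treatment, with the mean ± SD of 3 libraries and thin lines joining WT and KO libraries of the same replicate number. After doxorubicin the KO libraries of Sf3b3, 181 to 193 CPM, lie above the WT libraries, 122 to 149 CPM, and Sf3b5 stands at 91.8 CPM or more in every doxorubicin library against 46.8 CPM or less in every mock library.

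The second question was how doxorubicin changed these genes in each genotype. In WT cells 16 members fell and 5 rose, that is 27.6% and 8.62% of the members against 21.4% and 25.9% of all 10292 genes fitted. With the block 26 fell and 11 rose, against 30.1% and 33.6% of all genes. The falls lay in the hnRNP group (7 of 19, 13 with the block) and in the SR group (7 of 18 in both fits), whereas the U2 group had 1 fall and 1 rise (4 and 2 with the block) and the Sm and U1 group 1 fall and 2 rises (2 and 3 with the block). The median of the members was -0.19 against 0.01 over all genes. Median centring moved the median of all genes by -0.11, and then 23 members fell and 3 rose, against 28.6% and 21.4% of all genes. With the block and this centring 31 fell and 5 rose, against 37.8% and 28% of all genes. Groups did not overlap for 21 members lower and 7 higher after doxorubicin, against 25.3% and 29.4% of all genes.

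In KO cells 11 members fell and 1 rose, 19% and 1.72% of the members against 14.6% and 19.9% of all genes. With the block 23 fell and 7 rose, against 24% and 29.6% of all genes. This count was sensitive to single libraries: without KO doxorubicin replicate 3 or without KO mock replicate 2 it was 6, of which 5 fell. Over all 10292 genes the number called went from 3552 to 2546 and 2816 in the same fits. After median centring 19 fell and 1 rose, against 19.7% and 16.2% of all genes. Of the falls, 5 were hnRNP genes and 6 SR genes (12 and 7 with the block), and the rise was in the U2 group. Groups did not overlap for 15 members lower and 7 higher, against 21.5% and 27.1% of all genes.

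All 11 members that fell in KO also fell in WT, which is 100% of the KO falls and 68.8% of the 16 in WT. With the block 22 falls were shared, 95.7% of those in KO and 84.6% of those in WT, and 0 members were called in opposite directions in either fit. In the means, 32 members lay lower and 21 higher after doxorubicin in both genotypes. The matching shares over all genes were not computed, so this sharing is not shown to be particular to the splicing factor genes. The proliferation genes fell over the same treatment, with 19 of 28 called lower and 1 higher in WT (median -1.52) and 25 lower and 0 higher in KO (median -2.40). Fibroblast markers called without the block fell in 7 of 15 in WT and in 6 of 15 in KO, with no rise. With the block 12 fell and 0 rose in WT, and 11 fell and 1 rose in KO. The epithelial, blood and macrophage, and endothelial sums stood higher after doxorubicin. The epithelial sum was 6.43 to 37.4 CPM in the mock libraries and 87.7 to 263 CPM in the treated ones. The blood and macrophage sum was 2.42 to 58.3 and 69.0 to 157 CPM, and the endothelial sum 3.95 to 10.6 and 29.8 to 38.9 CPM. These sums add different genes: 2 epithelial in mock and 3 after doxorubicin, 1 and 2 blood and macrophage, and 2 and 2 endothelial, 1 of them shared. Over genes listed for both, the median WT response was 2.27 for 2 epithelial, 2.84 for 1 blood and 2.61 for 1 endothelial gene. In KO it was 1.96, 2.24 and 2.47. The neural sum ran from 233 to 539.7 and from 425 to 645 CPM, ranges that overlapped. The mean skeletal muscle sum was lower after doxorubicin, 115 against 235 CPM in WT and 34.9 against 103 CPM in KO. Of its 2 genes 1 had a higher mean after doxorubicin and 1 a lower mean in each genotype. The part of these lists in the splicing factor changes was not tested.

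**Figure D4:**
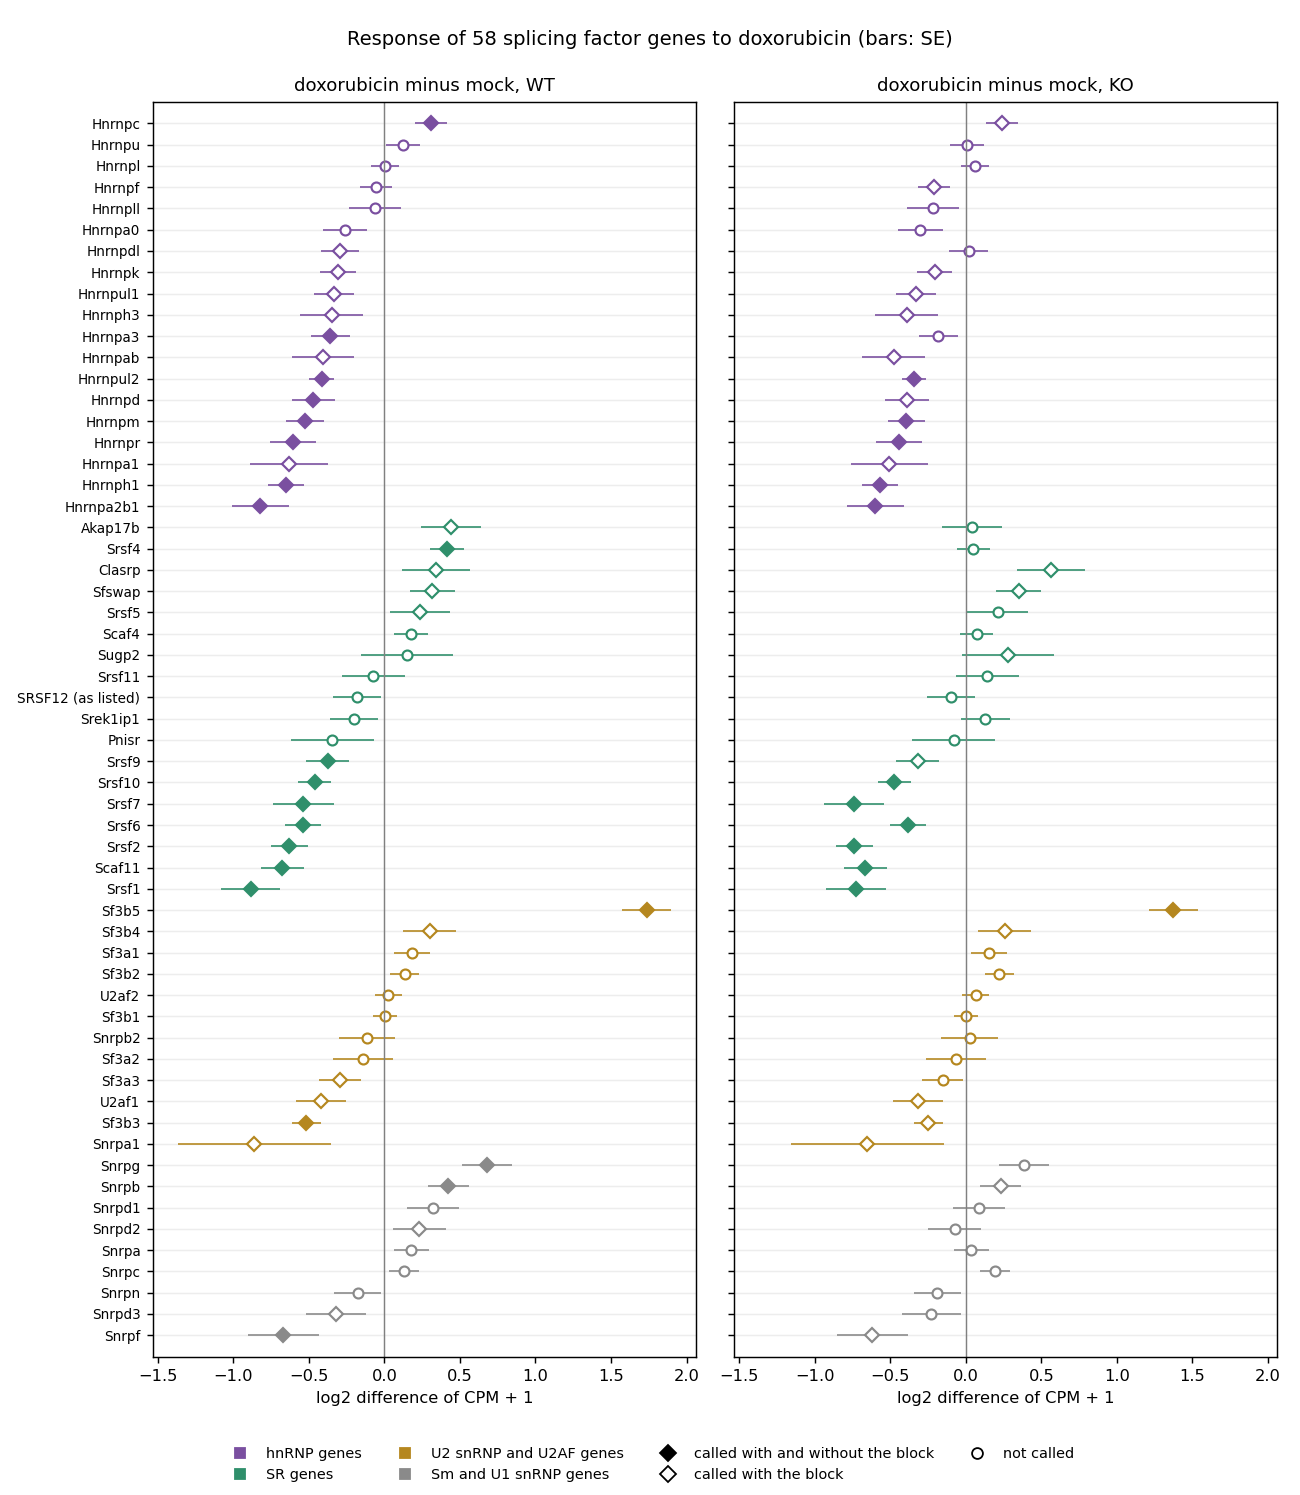
Difference between doxorubicin and mock in log2(CPM + 1) (horizontal axis) for each of the 58 genes in WT (left) and KO (right), with the SE of the fit without the block as bars, filled diamonds for genes called in both fits and open diamonds for genes called only with the block. Sf3b5 stands to the right in both genotypes, at 1.74 and 1.37, and most called hnRNP and SR genes stand to the left.

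The largest called falls of the SR group in WT were in Srsf1, Scaf11 and Srsf2. Srsf1 went from 196, 258 and 205 CPM in WT mock to the 131, 131 and 94.5 CPM given above, a fall to 0.542 of the mock mean with no overlap (-0.88, SE 0.20, adjusted p = 0.00369). In KO it went from 236, 318 and 227 CPM to 161, 189 and 122 CPM (-0.73, SE 0.20, adjusted p = 0.0151), and this call was lost without KO doxorubicin replicate 3 (adjusted p = 0.0636) and without KO mock replicate 2 (0.0599). Scaf11, which carries an arginine-serine domain, differed by -0.68 in WT (SE 0.14, adjusted p = 0.00268). Srsf2, also known as SC35, was at 221, 239 and 217 CPM in WT mock and at 141, 156 and 141 CPM in WT doxorubicin (-0.63, SE 0.12, adjusted p = 0.00172). Its response in KO was -0.74 (SE 0.12, adjusted p = 0.00118), from 266, 292 and 224 to 157, 176 and 134 CPM. Srsf2 thus fell with no overlap in both genotypes, and it remained called in each of the 17 alternatives in WT and in KO.

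Srsf7 fell in both genotypes, and in KO it had the largest fall of the SR group, from 88.9, 115 and 79.3 CPM to 52.5, 71.0 and 45.6 CPM (-0.74, SE 0.20, adjusted p = 0.0152). That call too was lost without KO doxorubicin replicate 3 (adjusted p = 0.0645) or without KO mock replicate 2 (0.061). Srsf6 was at 244, 255 and 261 CPM in WT mock and at 271, 268 and 276 CPM in KO mock, above every doxorubicin library of its genotype, and it fell in both genotypes. The SR gene that rose in WT was Srsf4, from 41.3, 48.4 and 44.3 CPM to 56.4, 60.6 and 62.3 CPM (0.42, SE 0.11, adjusted p = 0.00983). In KO, Srsf4 stood at 55.5, 53.3 and 45.6 CPM in mock and at 48.8, 54.0 and 56.9 CPM after doxorubicin, which overlap (0.05, adjusted p = 0.754).

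Among the hnRNP genes the largest falls in WT were in Hnrnpa2b1, Hnrnph1 and Hnrnpr. Hnrnpa2b1 went from 677, 768 and 646 CPM in WT mock to 437, 461 and 300.4 CPM (-0.82, SE 0.19, adjusted p = 0.00434) and from 774, 915 and 757 CPM in KO mock to 612, 604 and 415 CPM (-0.60, SE 0.19, adjusted p = 0.0291). Hnrnph1 went from 321, 333 and 348 CPM to 234, 205 and 199.9 CPM in WT (-0.65, SE 0.12, adjusted p = 0.00124) and from 365, 362 and 424 CPM to 305, 244 and 229 CPM in KO (-0.57, SE 0.12, adjusted p = 0.00433). Hnrnpr differed by -0.60 in WT (SE 0.15, adjusted p = 0.00737) and by -0.44 in KO (SE 0.15, adjusted p = 0.0428). In these 3 genes the doxorubicin and mock libraries of a genotype did not overlap. The KO calls of Hnrnpa2b1 and Hnrnpr were lost without KO doxorubicin replicate 3 (adjusted p = 0.116 and 0.164), without KO mock replicate 2 (0.0953 and 0.139) and without KO mock replicate 1 (0.0558 and 0.0741). That of Hnrnpr was also lost without KO doxorubicin replicate 2 (0.0717) or KO mock replicate 3 (0.0579), and in the blocked fits without replicate 2 (0.0937) or 3 (0.0565), while Hnrnph1 was called in all 17 alternatives of each genotype.

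Hnrnpk differed by -0.31 in WT (SE 0.12, adjusted p = 0.0521, 0.00675 with the block) and by -0.21 in KO (SE 0.12, adjusted p = 0.198, 0.0498 with the block). Over 17 alternatives its adjusted p ran from 0.000711 to 0.186 in WT and from 0.0078 to 0.535 in KO. Its WT doxorubicin libraries, 374 to 460.0 CPM, lay below its WT mock libraries, 495 to 555 CPM, whereas in KO the ranges of 449 to 567 and 551 to 645 CPM overlapped. Hnrnpc, which packages nascent transcripts, was the hnRNP gene that rose in WT, from 200.3, 228 and 195 CPM to 254, 239 and 280.4 CPM (0.31, SE 0.11, adjusted p = 0.0317). Its call was lost with median centring (adjusted p = 0.147) and without WT doxorubicin replicate 1 (0.0543) or 3 (0.115) or WT mock replicate 1 (0.0919) or 3 (0.106). In blocked fits it was lost with median centring (0.0889) and without replicate 1 (0.105) or 3 (0.128).

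The remaining hnRNP genes with library values to show are those called in both genotypes and between genotypes after doxorubicin when the block was used. Hnrnpa1 was at 127, 164 and 137 CPM in WT mock and at 169, 213 and 145 CPM in KO mock, and Hnrnpd at 104, 119 and 101 CPM in WT mock and 127, 152 and 119 CPM in KO mock. Hnrnpm was at 228, 242 and 223 CPM in WT mock and at 249.7, 299 and 262 CPM in KO mock, and Hnrnpul1 at 151, 157 and 144 CPM in WT mock and 188, 191 and 156 CPM in KO mock. Each of these 4 genes had its lowest mean in WT doxorubicin and its highest in KO mock. Called without the block, Hnrnpm fell after doxorubicin in both genotypes and Hnrnpd in WT only, and Hnrnpa1 and Hnrnpul1 were called in neither.

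In the U2 group Sf3b5 rose in both genotypes, from 42.2, 42.0 and 38.0 CPM to 126, 126 and 165 CPM in WT, a 3.41-fold ratio of means (1.74, SE 0.16, adjusted p = 2.89e-05). In KO it rose from 45.3, 46.8 and 35.5 CPM to 91.8, 112 and 133 CPM, a 2.64-fold ratio (1.37, SE 0.16, adjusted p = 0.000197). This was the largest difference of any of the 58 genes, and the mock and doxorubicin ranges were far apart in both genotypes. Sf3b3, a subunit of the same complex, fell in WT, from 179, 192 and 202 CPM to 149, 122 and 129.7 CPM (-0.52, SE 0.10, adjusted p = 0.0013). In KO it went from 209.7, 235 and 223 CPM to 187, 193 and 181 CPM, also without overlap (-0.25, SE 0.10, adjusted p = 0.066, 0.0423 with the block). The largest SF3B subunit, Sf3b1, differed by 0.00 in WT and in KO, with an SE of 0.08 in each. Snrpa1, the U2 protein A', spread widely among replicates, at 31.6, 39.6 and 9.96 CPM in WT doxorubicin against 41.5, 61.8 and 31.4 CPM in WT mock (-0.86, SE 0.51, adjusted p = 0.185, 0.00296 with the block).

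The Sm and U1 genes moved both ways in WT. Snrpg rose from 38.1, 40.8 and 35.4 CPM to 51.4, 57.1 and 79.3 CPM (0.68, SE 0.16, adjusted p = 0.00564) and Snrpb rose by 0.42 (SE 0.14, adjusted p = 0.0247). Snrpf fell from 24.9, 34.9 and 32.5 CPM to 17.0, 25.2 and 15.5 CPM (-0.67, SE 0.23, adjusted p = 0.0358). Snrpb was no longer called after quantile normalization (adjusted p = 0.0695), after median centring (0.0716) and without WT doxorubicin replicate 2 (0.0713) or WT mock replicate 1 (0.0721) or 3 (0.0714). That of Snrpf was lost without WT doxorubicin replicate 1 (0.0932) or 3 (0.126) or WT mock replicate 2 (0.113) or 3 (0.0932). The Snrpf ranges overlapped by 1 library in each treatment, and those of Snrpg and Snrpb did not overlap. In KO no gene of this group was called without the block, while with it Snrpb was higher (0.23, adjusted p = 0.036) and Snrpf lower (-0.62, adjusted p = 0.00167). Snrpb, Snrpf and Snrpg all encode proteins of the Sm ring, and in WT their RNAs did not share a direction.

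Other genes of the pathway, from lists of fixed membership, were mixed after doxorubicin. Of 73 other spliceosome genes, 20 rose and 9 fell in WT and 16 rose and 6 fell in KO (30 and 15, and 21 and 11, with the block). Of 47 splicing regulators outside the name rule, 5 rose and 16 fell in WT and 5 rose and 11 fell in KO (9 and 23, and 6 and 14, with the block). Over all genes without the block, 25.9% rose and 21.4% fell in WT, and 19.9% and 14.6% in KO. With it the shares were 33.6% and 30.1% in WT, and 29.6% and 24% in KO. The splicing regulators, like the hnRNP and SR genes, had more falls than rises in both genotypes, and whether the lists differ was not tested.

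For the hnRNP and SR genes that fell and the other members, promoters were read from RefSeq for GRCm38.p6, each taken as the 250 bases before an annotated start and 50 bases after it. Windows were found for 49 of the 57 members searched, 70 windows in all, and 4 promoters of strongly falling genes are printed because they hold a searched motif. Only the 250 bases before the start are shown, read 5′ to 3′ on the gene's own strand, with motif matches in capitals.
Srsf1, chr11:88047123-88047372, plus strand: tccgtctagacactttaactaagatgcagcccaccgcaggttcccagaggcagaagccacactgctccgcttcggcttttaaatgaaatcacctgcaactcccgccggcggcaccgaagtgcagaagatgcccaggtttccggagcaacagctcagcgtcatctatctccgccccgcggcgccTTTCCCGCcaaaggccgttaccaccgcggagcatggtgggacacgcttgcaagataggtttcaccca
Hnrnpa2b1, chr6:51469895-51470144, minus strand: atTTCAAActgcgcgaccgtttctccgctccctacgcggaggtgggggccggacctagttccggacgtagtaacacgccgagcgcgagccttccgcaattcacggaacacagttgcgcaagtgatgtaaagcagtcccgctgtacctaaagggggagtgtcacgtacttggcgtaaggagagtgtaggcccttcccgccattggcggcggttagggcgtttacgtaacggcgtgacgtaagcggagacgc
Hnrnph1, chr11:50377428-50377677, plus strand: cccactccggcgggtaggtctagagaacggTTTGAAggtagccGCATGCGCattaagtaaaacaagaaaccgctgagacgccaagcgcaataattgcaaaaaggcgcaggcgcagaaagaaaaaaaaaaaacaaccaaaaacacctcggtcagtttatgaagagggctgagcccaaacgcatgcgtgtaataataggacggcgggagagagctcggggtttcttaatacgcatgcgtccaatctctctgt
Hnrnpr, chr4:136311348-136311597, plus strand: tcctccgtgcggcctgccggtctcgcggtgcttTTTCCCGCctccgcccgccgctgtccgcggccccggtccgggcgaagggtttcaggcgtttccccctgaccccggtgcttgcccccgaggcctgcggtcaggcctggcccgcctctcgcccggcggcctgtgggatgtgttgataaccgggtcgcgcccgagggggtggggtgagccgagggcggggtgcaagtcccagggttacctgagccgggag

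In Srsf1 and Hnrnpr the capitals mark TTTCCCGC, an E2F-type motif. They mark TTTGAA, the cell cycle homology region, in Hnrnpa2b1 on the opposite strand and in Hnrnph1, where the second match is GCGCATGC, the NRF1 core, on the opposite strand. In all, 5 motifs were searched on both strands, and each was counted alone where matches overlapped. TTTCCCGC was in 11.4% of member windows (8 windows of 6 genes) and in 1.95% of the 11422 windows of listed genes. TTTGGCGC, the other E2F form, was in 0% and 0.963%. TTTGAA was in 12.9% and 11.6%, CCGGAAGT of the ETS family in 17.1% and 8.12%, and GCGCATGC in 4.29% and 5.30%. Windows of 1 gene can overlap and then count more than once. The 6 genes with TTTCCCGC were Srsf1, Hnrnpr, Hnrnpul1, Srsf10, Scaf4 and U2af1, and Srsf10 held 3 matches. Without the block Srsf1, Hnrnpr and Srsf10 were called lower after doxorubicin in WT, and Hnrnpul1, Scaf4 and U2af1 were not called. The motif shares are over all members searched, and a link of a motif to the falls was not tested. A match is a description of the letters and not a measured binding site.

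The last comparison asked whether the response to doxorubicin differed between genotypes. No member was called, either without or with the block (0 of 58 in each, against 0% and 0% of all genes in either direction), and at an unadjusted p under 0.05 limma gave 1 member without the block (1.72%, against 4.55% of all genes) and 3 with it (5.17%, against 15.6%). The smallest p in the limma fit belonged to Srsf4, with a difference in response of -0.365 (SE 0.16, adjusted p = 0.922, 0.282 with the block). The next were Sf3b3 (0.27, SE 0.14), Hnrnpdl (0.31, SE 0.18), Sf3b5 (-0.36, SE 0.23) and Srek1ip1 (0.33, SE 0.23), each with an adjusted p of 0.922. For Hnrnpk the difference in response was 0.10 (SE 0.17, adjusted p = 0.951). The calls seen between genotypes after doxorubicin and not in mock are therefore not shown to differ between the treatments. In the means, 46 members lay above WT in both treatments, 2 below in both, 7 above in mock and below after doxorubicin, and 3 the reverse. The matching counts over all genes were not computed.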

How the data were processed

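RNA was sequenced in 12 libraries of MEFs, 4 groups of 3. The authors deposited 1 table for mock and 1 for doxorubicin, each with CPM (gene read counts scaled to library size) per gene and library. Per the submitters' processing notes, TopHat2 2.0.6, HTSeq and edgeR were used with the genome NCBIM37. The CPM were whole multiples of 1 read (within 0.001 of a read), and each table holds genes above 2 CPM in all 3 WT libraries, so genes expressed in KO alone are not analysed here; no member lay at or under 2 CPM in any library.

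The comparisons were fitted with limma 3.58.1 (moderated linear models with an intensity trend) in R 4.3.3 on log2(CPM + 1) over all genes. Adjustment was by Benjamini-Hochberg, with a threshold of 0.05. Only the fits of KO against WT were tried on simulated libraries, and these carried no replicate effect. That trial therefore does not test the pairing, the doxorubicin fits or the interaction fit. KO against WT was fitted within each table of 6 libraries, doxorubicin against mock and the interaction on all 12 over the 10292 genes in both tables. The tables share a scale only through CPM, so differences between treatments rest on that scaling. The replicate number was also used as a block. The numbers were taken to pair libraries because same-numbered WT and KO libraries deviated together from their group means (correlations 0.710 to 0.855 in mock and 0.669 to 0.800 after doxorubicin, against at most -0.0668 and -0.114 for different numbers); across treatments the same-number values were 0.394 to 0.517 in WT and 0.428 to 0.728 in KO. Deviations of 3 libraries sum to 0, which pushes the different-number values below 0. With 3 pairs the blocked fits have few residual degrees of freedom. Blocked fits of KO against WT that leave out a replicate have fewer still, and their counts do not show what each replicate contributes.

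The members and lists were chosen with earlier results of these data known. Named genes were Hnrnpk throughout, and per group the 3 largest called differences each way (from the blocked fit where the other gave fewer), or the smallest p where none was called, and the 5 smallest p in the interaction. Levels in every library are given for Hnrnpk and the members called in most comparisons; further members were added after their values were seen. Alternatives were other pseudocounts (0.5 and 2), a filter at a mean of 10 CPM, quantile normalization, median centring, the block and leaving out each replicate.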

Additional observations from a re-analysis of the deposited data

How the results depend on the processing

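For the doxorubicin responses, 23 of 34 alternative counts of called members stayed within 1.5 times the reported count. For the other comparisons the reported count was 0, and 53 of 61 alternatives also gave 0, which says little where few genes of the whole table were called. None of 1104 alternative values of named members reversed (31 lost a call and 137 gained one). The replicate block moved the count from 0 to 17 for KO against WT after doxorubicin, from 21 to 37 for doxorubicin in WT and from 12 to 30 in KO, and it left the interaction at 0. Over all genes it moved the number called from 0 to 2820, from 4863 to 6556 and from 3552 to 5524. These shifts were therefore not particular to the members. Leaving out a replicate under the block gave 0 to 33 members for KO against WT in mock (33 without replicate 3), 1 to 12 after doxorubicin (1, 12 and 9 without replicates 1, 2 and 3), 27 to 32 for doxorubicin in WT and 17 to 21 in KO. Over all genes these fits called 0 to 2438, 692 to 2590, 5395 to 5672 and 3833 to 4571, in the same order. Without the block, leaving out a library gave 0 for both genotype comparisons, 15 to 21 for doxorubicin in WT and 6 to 13 in KO. Over all genes these gave 0 for both genotype comparisons, 3870 to 4822 for doxorubicin in WT and 2546 to 3310 in KO. Median centring gave 20 in KO, with 3696 of all genes called. The WT response had 5 rises with 16 falls, and 4 with 22 under quantile normalization and 3 with 23 under median centring. Over all genes the WT response had 2664 rises with 2199 falls, and under these scalings 2308 with 2771 and 2202 with 2944. With the block, quantile normalization and median centring, chosen after seeing the data, gave 17 and 16 for KO against WT after doxorubicin, 37 and 36 for doxorubicin in WT (6 rises with 31 falls, and 5 with 31) and 31 and 31 in KO (4 with 27, and 3 with 28). Over all genes they gave 2602 and 2718, 6717 and 6770, and 5645 and 5624, in the same order. All 12 libraries with the block, also chosen after seeing the data, gave 14 for KO against WT after doxorubicin, and 1438 over all genes. The causes were not tested. The planned edgeR and DESeq2 fits on reads recovered from the CPM were not run.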

Other observations

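Akap17b, listed under an older SR name, is on the X chromosome of GRCm38.p6. Of the 9833 listed genes that matched a current symbol 10 lay on X and 0 on Y, and the deposited tables are marked as leaving both chromosomes out. Akap17b stood at 4.40, 5.81 and 6.77 CPM in WT mock, 4.58, 6.01 and 5.86 in KO mock, 7.15, 7.95 and 8.85 in WT doxorubicin and 4.29, 5.73 and 7.24 in KO doxorubicin. After doxorubicin it was lower in KO in each of the 3 pairs, and with limma it was called with the block in the WT response (0.44, adjusted p = 0.00869) and not in the KO response (0.04, adjusted p = 0.788). Without the block limma did not call the WT response (adjusted p = 0.0875), and 4 of its 16 alternatives were under 0.05. These low levels also put the gene outside the filter at a mean of 10 CPM. The difference in response was -0.40 (SE 0.28, adjusted p = 0.922, 0.304 with the block).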
